A study of Mus musculus with 163 samples.

Results

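The enzymes that add methyl groups to lysines of histones, and those that remove them, were followed through oocyte growth in the mouse, in oocytes grown in the animal and in oocytes that spent part or all of their development in culture. Rows were taken by gene symbol: Dot1l, and every symbol that starts with Kdm, Kmt2, Kmt5, Setd, Ehmt, Suv39h or Nsd. The rule found 44 of the 21950 genes counted. One of them, Nsdhl, meets it by its letters alone and encodes a sterol dehydrogenase, so 43 histone enzyme genes are described. Kdm4d is not analysed here.

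Methylation of histone lysines marks chromatin for transcription or for silencing, depending on the residue. H3K4 and H3K36 methylation accompany promoters and transcribed gene bodies, H3K9 and H4K20 methylation accompany heterochromatin, and H3K27 methylation accompanies Polycomb repression. In growing oocytes H3K4 and H3K36 methylation also bear on where new DNA methylation is laid down. The H3K4 demethylase KDM1B is required for DNA methylation at a number of maternally imprinted loci, the H3K36 methyltransferase SETD2 shapes the DNA methylation landscape, and the methyltransferase KMT2B deposits much of the H3K4 methylation of the oocyte.

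Each library was 1 oocyte, lysed after its somatic cells and zona had been taken off and prepared by Smart-seq2, a full-length cDNA method for single cells. Growing oocytes (GROs) came from 3 sources. There were 23 iPSC-derived GROs, made from BVSC-iPSCs, 1 female line of induced pluripotent stem cells from adult tail-tip fibroblasts that carries the reporters Blimp1-Venus and Stella-ECFP. These cells were turned into primordial germ cell-like cells and aggregated with gonadal somatic cells of E12.5 Swiss Webster embryos. There were 24 gonad-derived GROs from dissociated and re-aggregated E12.5 gonads, and 24 in vivo GROs. Fully grown oocytes (FGOs) comprised 24 iPSC-derived and 24 gonad-derived FGOs grown on from such cultures, 24 FGOs grown in culture from follicles of mice at 6 days postpartum (6 dpp FGOs), and 20 in vivo FGOs. The reporters are carried only by the iPSC-derived groups, so the cell line and the culture cannot be told apart there. The labels give no strain for the other groups, no age for the mice of the in vivo groups, and nothing on which oocytes shared an animal or a culture. For that reason each group is treated as 1 sample: no test was run and no p is given, intervals cover counting error only, and the spread is given over oocytes. Fewer transcripts of one gene and more of all others cannot be told apart in these relative values. The study reports that GROs of both cultures were larger than in vivo GROs, so growth ratios of the cultures start from larger oocytes. Oocyte size was not used here, and size and culture cannot be told apart where these groups are compared.

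The libraries held 2.17 to 13.7 megareads (units of 1000000 counted reads, median 6.93), and the summed libraries of a group 145 to 166 megareads. Levels are counts per 1000000 counted reads (CPM) over the summed reads of a group, named pooled CPM, at which 3 reads correspond to 0.0181 to 0.0207 CPM. All 12 oocyte markers were abundant in every group, with summed levels of 24900 to 70950 CPM. Summed granulosa markers (10 of 12 matched) lay between 50.7 and 197 CPM, and 6 dpp FGO 12 alone reached 1615 CPM, with 816 CPM of theca and stroma markers. Among 1823 pairs of libraries within groups none held identical counts.

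Promoter sequences of 5 of the genes that passed 2-fold in 2 or more of the comparisons below are printed first, so that their windows can be set beside the levels. The windows run from 250 bases before to 50 bases after the annotated start (RefSeq, GRCm38.p6). They are Kdm1b at chr13:47043249-47043548 on the plus strand, Ehmt2 at chr17:34898224-34898523 on the plus strand, Kmt5b at chr19:3767171-3767470 on the plus strand, Kmt5c at chr7:4739877-4740176 on the plus strand and Setdb2 at chr14:59440831-59441130 on the minus strand. Each is given 5′ to 3′ on the strand of the gene. Capitals mark a GC box (GGGCGG) or a CCAAT box (CCAAT), on either strand.
Kdm1b: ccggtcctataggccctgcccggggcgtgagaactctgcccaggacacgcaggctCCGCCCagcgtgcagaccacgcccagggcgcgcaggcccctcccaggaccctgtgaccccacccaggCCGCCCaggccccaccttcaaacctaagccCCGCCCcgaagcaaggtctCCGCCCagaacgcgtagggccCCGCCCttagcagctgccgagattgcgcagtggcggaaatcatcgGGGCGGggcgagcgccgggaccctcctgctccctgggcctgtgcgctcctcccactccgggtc
Ehmt2: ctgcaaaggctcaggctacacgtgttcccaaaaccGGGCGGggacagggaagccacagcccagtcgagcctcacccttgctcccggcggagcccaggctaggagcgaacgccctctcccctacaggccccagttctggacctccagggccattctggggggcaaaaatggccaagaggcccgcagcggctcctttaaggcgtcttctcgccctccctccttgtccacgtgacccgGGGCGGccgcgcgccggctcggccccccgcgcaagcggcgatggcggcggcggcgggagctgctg
Kmt5b: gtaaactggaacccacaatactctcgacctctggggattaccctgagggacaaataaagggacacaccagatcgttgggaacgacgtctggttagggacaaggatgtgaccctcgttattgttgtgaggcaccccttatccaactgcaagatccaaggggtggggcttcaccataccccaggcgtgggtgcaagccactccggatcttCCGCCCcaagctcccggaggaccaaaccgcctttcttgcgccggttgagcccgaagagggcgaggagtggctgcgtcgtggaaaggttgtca
Kmt5c: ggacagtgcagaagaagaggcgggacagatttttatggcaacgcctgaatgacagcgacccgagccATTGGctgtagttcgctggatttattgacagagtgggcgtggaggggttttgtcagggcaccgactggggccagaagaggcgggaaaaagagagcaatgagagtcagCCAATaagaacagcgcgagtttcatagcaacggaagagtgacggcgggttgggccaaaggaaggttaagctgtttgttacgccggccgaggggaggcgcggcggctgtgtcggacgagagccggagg
Setdb2: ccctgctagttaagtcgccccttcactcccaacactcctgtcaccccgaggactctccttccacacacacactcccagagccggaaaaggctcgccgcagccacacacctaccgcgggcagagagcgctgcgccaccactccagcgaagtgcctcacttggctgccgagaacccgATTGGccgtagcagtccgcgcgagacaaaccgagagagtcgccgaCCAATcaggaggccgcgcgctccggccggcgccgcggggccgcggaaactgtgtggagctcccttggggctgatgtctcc
The Kdm1b window held 6 GC boxes, that of Ehmt2 2 and that of Kmt5b 1, whereas those of Kmt5c and Setdb2 each held 2 CCAAT boxes and no GC box. A promoter was found for 32 of the 43 genes. A GC box was present in 20 of the 32 (62.5%), against 35.9% of all 27025 promoters of this length. For the CCAAT box the shares were 37.5% and 37.9%, for the E-box (CANNTG) 62.5% and 72.1%, and for the TATA box (TATAAA) 3.12% and 14.2%. The letters TAATTG, an element bound by the oocyte factor NOBOX, were in none of the 32 windows and in 8.15% of all. The windows of the enzymes held a median of 25 CG dinucleotides against 7 over all promoters, and a median GC content of 62% against 52.7%, and the part of base composition in these shares was not tested. A match of letters is a description and not a bound site.

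Several libraries stood apart before any comparison was made. Gonad-derived FGO 19 was the farthest from its group, with a median absolute log2 distance from the group's median profile of 0.84 over 8329 genes, against 0.24 for the next oocyte, at 6.95 megareads. Of the 41 enzymes that passed the limit on low values (below), it held the highest level of its group for 16 and the lowest for 6, against 18.3% and 29.2% of 13582 genes. Setd4 stood at 81.8 CPM in this oocyte and at 498 to 964 CPM in the other 23. Suv39h1 stood at 40.3 CPM against 190 to 343 CPM, and Kdm1b at 572 CPM against 112 to 398 CPM. Elsewhere the farthest oocyte of a group lay at 0.25 to 0.42. Of these, 6 dpp FGO 3 was at 0.34 where the next oocyte of its group was at 0.22, and it held the highest Nsd1 level of any oocyte of its group, 405 CPM.

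Among in vivo FGOs, numbers 5, 7, 16, 19 and 22 lay above all other 15 for 5 of 41 enzymes and below them for none, against 3.46% and 1.5% of genes. The study did not keep these 5 for its own fits, for which it chose oocytes by their size. Ehmt2 was at 3.92 to 7.08 CPM in these 5 and at 0 to 1.99 CPM in the others. Ehmt1, its partner in the same H3K9 methyltransferase complex, was at 63.7 to 94.9 CPM against 35.5 to 55.8 CPM. Kdm3b was at 16.5 to 22 CPM against 5.23 to 15.5 CPM, Kdm5c at 28.4 to 42.4 CPM against 16.8 to 26 CPM, and Kmt5b at 6.37 to 8.07 CPM against 2.79 to 5.94 CPM. Summed granulosa markers reached 411 CPM in in vivo FGO 19, the highest of the group. In vivo FGO 16 held the highest sums of theca and stroma markers (41.4 CPM, group median 6.22) and of blood markers (1.02 CPM). The part of somatic transcripts and that of oocyte size in these levels were not tested. Without these 5 oocytes, and without the other libraries that earlier results had set apart, growth in vivo moved past 2-fold for Kdm3b (-0.94 to -1.32) and Setd1b (-0.93 to -1.04).

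The widest division ran through the in vivo GROs. In the 8 oocytes numbered 17 to 24, 9 of the 34 enzymes with a group median of at least 5 CPM lay above every one of the 16 oocytes numbered 1 to 16. Over all genes of that level this held for 7.17% (621 of 8667). One enzyme, Setdb1, lay below in all 8, as did 1.79% of genes (155). The same division by number set apart no enzyme in the other 6 groups, and at most 3 genes above and 4 below in any of them, in gonad-derived FGOs. The numbers are names in the labels, which do not say what they mark, and the division was noticed in the values. Ratios below that rest on in vivo GROs are given without numbers 17 to 24 as well where their direction or call changed or the value moved by over 1.5 times.

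Kmt2b, the H3K4 methyltransferase needed in growing oocytes, ranged from 42.4 to 85.9 CPM in in vivo GROs 17 to 24 and from 15 to 30.3 CPM in numbers 1 to 16. Kdm1a, the H3K4 demethylase LSD1, ranged from 35.2 to 80.9 CPM against 10.8 to 26 CPM. Setd1a, another H3K4 methyltransferase, ranged from 53 to 93 CPM against 20.9 to 36.3 CPM. In each case the lowest of the 8 stood above the highest of the 16. The other 6 were Kdm2a (32.9 to 56.5 CPM against 11 to 24 CPM), Kdm6b (245 to 287 against 137 to 236 CPM), Kmt5a (27.9 to 57.4 against 13.8 to 23.3 CPM), Nsd2 (57.3 to 90.7 against 24.8 to 39.4 CPM), Setd2 (23.5 to 35.8 against 7.53 to 19.8 CPM) and Setd5 (12.9 to 27.7 against 3.85 to 7.93 CPM). Setdb1 was at 49.6 to 79.8 CPM in the 8 and at 80.7 to 128 CPM in the 16. Kmt2a, below the 5 CPM limit, was at 1.73 to 9.25 CPM against 0 to 1.59 CPM. Kdm1b did not divide in this way, with 619 to 856 CPM in the 8 and 767 to 1158 CPM in the 16.

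**Figure D1:**
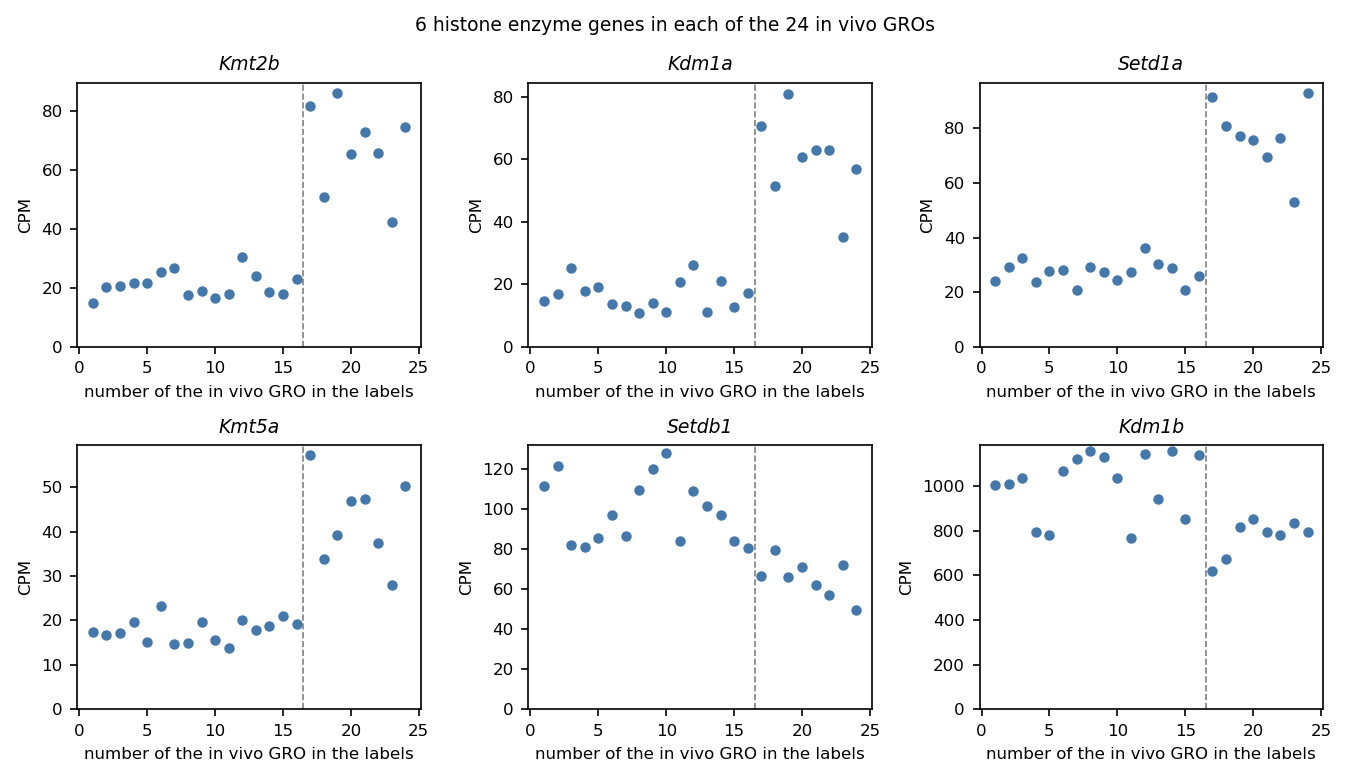
CPM (y axis, linear from 0) of 6 histone enzyme genes in each of the 24 in vivo GROs, by the number of the oocyte in the labels (x axis); the dashed line separates numbers 1 to 16 from 17 to 24. Kmt2b, Kdm1a, Setd1a and Kmt5a are higher in all 8 oocytes to the right of the line, Setdb1 is lower in all 8, and Kdm1b overlaps.

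Sequencing depth and summed markers overlapped between the 8 oocytes and the 16, and their part in the division was not tested. The 8 held 5.84 to 7.53 megareads and the 16 held 5.55 to 7.54 megareads. Summed oocyte markers were at 57188 to 80260 CPM and 62724 to 90852 CPM. Summed granulosa markers were at 18.7 to 90.8 CPM and 31.8 to 65.2 CPM, and theca and stroma markers (9 genes) at 3.85 to 18.2 CPM and 1.56 to 8.36 CPM, with ranges that overlapped for each list.

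Across the 7 groups the 43 enzymes together accounted for 2899 to 3447 CPM, and 27 to 34 of them were at 5 CPM or more in a group. Per length of the counted transcript, Setd4 was the highest by its median over the groups, at 259 CPM per kilobase. The substrate of SETD4 is not settled. Kdm1b followed at 90.8, Suv39h1, which methylates H3K9 in pericentromeric heterochromatin, at 69.8, and the H3K27 demethylases Kdm6b and Kdm6a at 40.9 and 35.6 CPM per kilobase. Setdb1, the H3K9 methyltransferase that works with TRIM28 on retroelements, stood at 32.5. At the other end Kmt2a was at 0.102, Setd7 at 0.0071 and the Y-linked Kdm5d, with no read in any of the 163 oocytes, at 0. A count of 0 allows up to 3 reads (a one-sided limit, where the counting intervals are two-sided), which puts Kdm5d below 0.0207 CPM in every group. The order leans on the transcript chosen for counting, since the counted length was under 50% of the longest GENCODE transcript for 9 of the 43 genes, with a median of 99.7%. These 9 were Setdb2 (41.1%), Kdm5b (37.3%), Setd6, Kdm5d, Setd1b, Setd2, Kmt2c, Kmt2e and Setd3. For them a change in transcript use between groups could also move the ratios below, which was not tested.

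**Figure D2:**
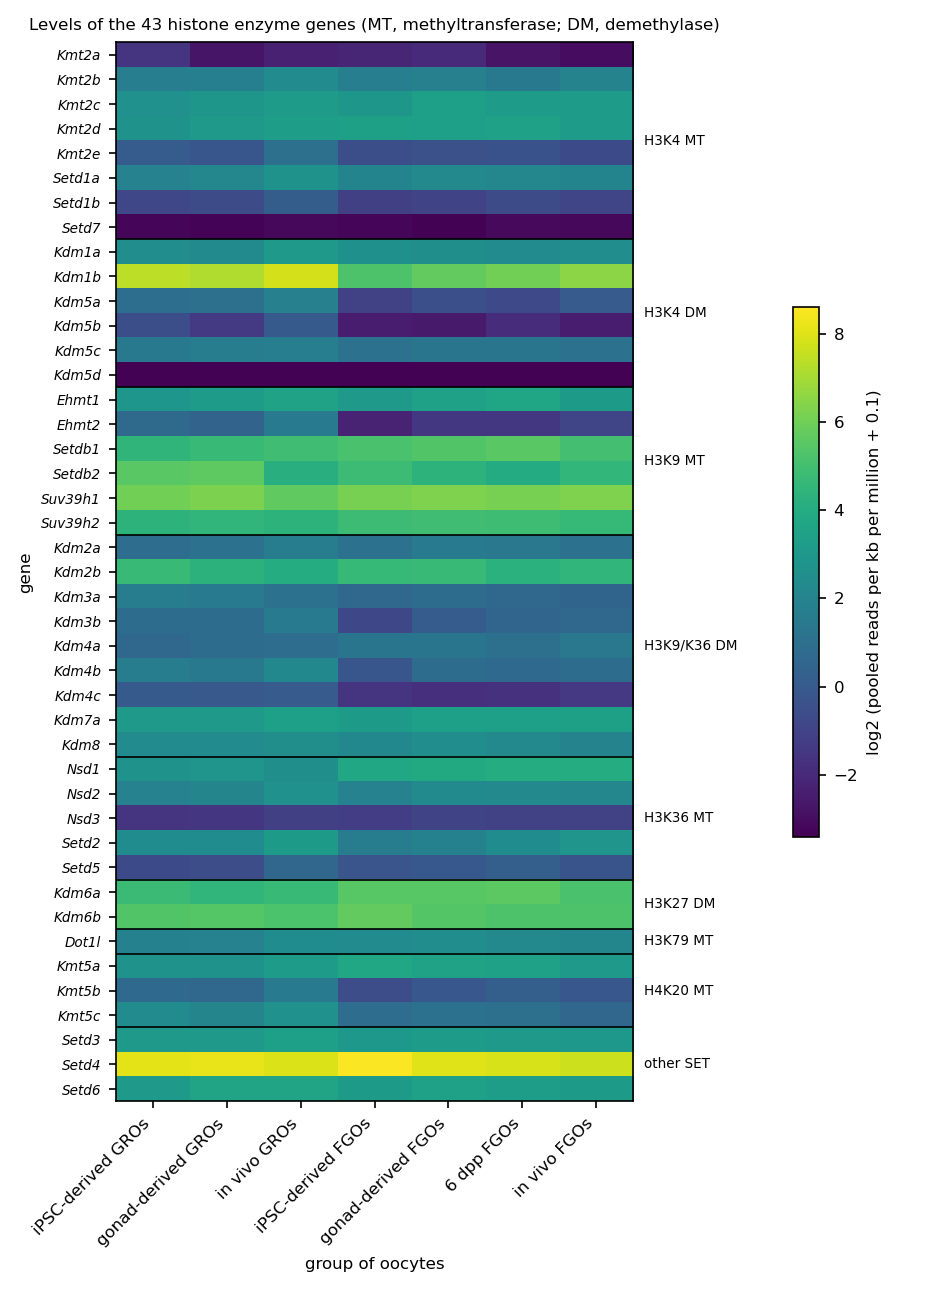
Levels of the 43 histone enzyme genes in the 7 groups of oocytes, as log2 of pooled CPM per kilobase with 0.1 added (colour), with genes in rows by the residue their enzyme acts on (MT, methyltransferase; DM, demethylase) and groups in columns. Setd4, Kdm1b and Suv39h1 are the brightest rows, Setd7 and Kdm5d the darkest, and Kdm1b, Ehmt2, Kdm5a and Kdm5b are darker in the FGO columns.

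The widest range between groups among genes above 1 CPM in some group belonged to Ehmt2, whose highest group was 24.5 times its lowest, followed by Kdm5b (12.2 times) and Kdm5a (9.25 times). The range of Ehmt2 is narrower without in vivo GROs 17 to 24. Its highest group, in vivo GROs, was at 13.5 pooled CPM with and 8.84 without them, and its lowest, iPSC-derived FGOs, at 0.554. Kdm7a and Setd3 moved least, by 1.28 and 1.29 times. Within groups the median coefficient of variation over oocytes was 0.192 for enzymes at 5 CPM or more in iPSC-derived GROs, against 0.211 for all genes at that level. It was above that of all genes in in vivo GROs (0.279 against 0.245), in vivo FGOs (0.233 against 0.194) and iPSC-derived FGOs (0.233 against 0.221), and below it in gonad-derived FGOs (0.234 against 0.249), gonad-derived GROs (0.201 against 0.21) and 6 dpp FGOs (0.193 against 0.201). By interquartile range over the median the order turned in iPSC-derived FGOs (0.232 against 0.263) and gonad-derived FGOs (0.289 against 0.27). Suv39h2 varied least in 4 of the 7 groups, with a coefficient of 0.0878 in iPSC-derived GROs and 0.139 in in vivo GROs, where Kdm1a reached 0.727.

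The first question was how the enzymes differ between growing and fully grown oocytes within each source. Values are log2 ratios of pooled CPM plus 0.5, FGO over GRO, and a gene is called higher or lower at a ratio of 2-fold or more. Folds printed with pooled levels are plain ratios of pooled CPM without the 0.5, and for low transcripts they exceed the log2 ratio on which the call rests. Of the 43 genes, 41 passed the limit on low values (CPM above 1 in at least 3 oocytes), all but Kdm5d and Setd7. In vivo, 10 of the 41 were lower in FGOs and 1 was higher, against 13.2% and 10.4% of all 13148 genes. In gonad-derived oocytes 5 were lower and 2 higher, against 9.98% and 5.82% of genes. In iPSC-derived oocytes 9 were lower and 2 higher, against 15.3% and 6.69% of genes. The median ratio of the 41 was -0.44 in vivo, 0.10 in gonad-derived and 0.01 in iPSC-derived oocytes, where those of all genes were -0.11, -0.05 and -0.11. The same 4 enzymes, Ehmt2, Kdm1b, Kdm4c and Kdm5a, were lower in all 3 sources, against 6.56% of the 12478 genes tested in all 3, and Nsd1 was higher in all 3, against 3.11%. With 2 CPM added in place of 0.5, Kdm4c was within 2-fold in all 3 sources (-0.66, -0.75 and -0.72). The same setting ended the calls of Kmt2a (-0.63) and Kmt2e (-0.71) in vivo, of Kmt2a (0.72) in gonad-derived oocytes and of Kdm5b (-0.78) and Kmt5a (0.98) in iPSC-derived oocytes, and put Nsd1 just short of 2-fold in gonad-derived oocytes. In all, 14 of the 41 passed 2-fold in at least 1 source, a share of 34.1% beside 34.7% of genes. Every FGO stood below every GRO for 2 enzymes in vivo, 0 in gonad-derived and 3 in iPSC-derived oocytes, against 1.19%, 2.62% and 5.62% of genes. Every FGO stood above every GRO for 0, 2 and 2, against 2.26%, 1.36% and 2.39% of genes.

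**Figure D3:**
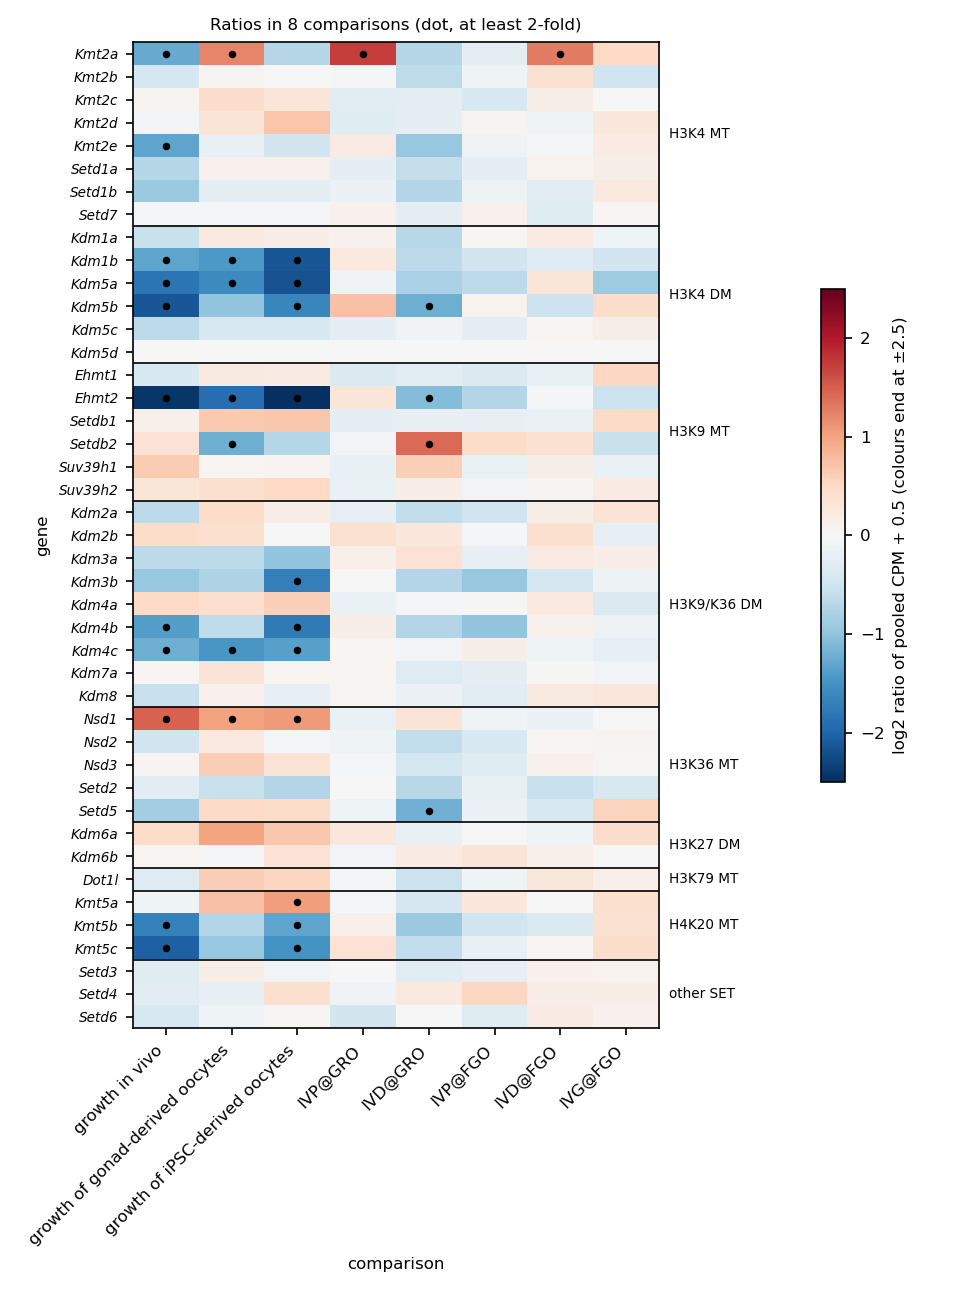
Log2 ratios of pooled CPM plus 0.5 (colour, ending at ±2.5) for the 43 genes (rows) in 8 comparisons (columns), with a dot at ratios of 2-fold or more. The growth columns give FGO over GRO; dots gather in the rows of Kdm1b, Kdm5a, Kdm5b, Ehmt2, Kdm4b, Kdm4c, Kmt5b and Kmt5c there, and the 5 culture columns hold 6 dots.

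Kdm1b, located at chromosome 13 (47043373 to 47085279, GRCm38), was the highest of the H3K4 demethylases per length in each group. In in vivo GROs it was at 933 pooled CPM (95% counting interval 928 to 938), and single oocytes ranged from 619 over a median of 900 to 1158 CPM. In in vivo FGOs it was at 376 pooled CPM, with oocytes from 153 over 399 to 583 CPM, so every GRO stood above every FGO. The difference was 2.48-fold. Gonad-derived GROs held 589 pooled CPM (427, 556 and 854 CPM as lowest, median and highest oocyte) and gonad-derived FGOs 217 (112, 192 and 572 CPM). These overlap through gonad-derived FGO 19 alone, since the next highest FGO was at 398 CPM. iPSC-derived GROs held 696 pooled CPM (443, 694 and 966 CPM) and iPSC-derived FGOs 157 (81.9, 153 and 264 CPM), a 4.43-fold difference without overlap. On the opposite strand the gene shares exonic sequence with Dek. Such overlap was found for 17 of the 43 enzymes, among them Kdm5a (with Ccdc77), Kmt2e (Srpk2), Setdb1 (Cers2), Nsd2 (Nelfa), Suv39h2 (Dclre1c) and Kdm2b (Rnf34), and whether counting used strand is not stated, so reads of the partners cannot be told apart from theirs.

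Of the other H3K4 demethylases, Kdm5a was called lower in FGOs of all sources and Kdm5b in vivo and in iPSC-derived oocytes. Kdm5a was at 41.6 pooled CPM in in vivo GROs (22.1, 40.8 and 72.5 CPM as lowest, median and highest oocyte) and at 11.4 in in vivo FGOs (1.76, 8.37 and 28.9 CPM), a 3.65-fold difference with overlap (a log2 ratio of -1.82, or -2.49 with the oocytes the study kept). In iPSC-derived oocytes it went from 22.2 pooled CPM (12.3 to 36.9 CPM) in GROs to 4.5 (1.78 to 8.05 CPM) in FGOs, without overlap. Gonad-derived GROs held 23.6 pooled CPM (14 to 32.9 CPM) and FGOs 7.41 (2.75 to 16.1 CPM). Kdm5b was a low transcript, at 2.92 pooled CPM in in vivo GROs (0.285, 2.73 and 8.24 CPM) and 0.276 in in vivo FGOs (0, 0.139 and 1.17 CPM), with log2 ratios of -2.14 in vivo, -0.98 in gonad-derived and -1.63 in iPSC-derived oocytes. The gonad-derived ratio passed 2-fold with 0.1 CPM added (-1.63) and when single oocytes were left out (up to -1.12, without gonad-derived FGO 18), so which sources are called for this gene depends on the setting. The X-linked Kdm5c was within 2-fold, at -0.66 in vivo. Kdm1a was at -0.56 in vivo, 0.23 in gonad-derived and 0.17 in iPSC-derived oocytes, and the in vivo ratio was 0.32 without in vivo GROs 17 to 24.

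Among H3K9 methyltransferases the 2 subunits of the G9a/GLP complex differed in course. Ehmt2 (G9a; chromosome 17, 34898463 to 34914073) was at 13.5 pooled CPM in in vivo GROs (4.07, 9.92 and 37.3 CPM as lowest, median and highest oocyte) and at 2.1 in in vivo FGOs (0, 1.01 and 7.08 CPM), 6.42-fold lower. The log2 ratio was -2.43, and it was -3.45 with the oocytes the study kept, which leaves out in vivo FGOs 5, 7, 16, 19 and 22, and -1.84 without in vivo GROs 17 to 24. Gonad-derived GROs held 6.06 pooled CPM (2.33, 5.73 and 12.6 CPM) and FGOs 1.26 (0, 1.28 and 2.41 CPM). In iPSC-derived oocytes the level went from 7.58 (4.58, 7.25 and 12.3 CPM) to 0.554 (0, 0.435 and 1.82 CPM), 13.7-fold lower and without overlap. Ehmt1 (GLP) stayed at 45.1 to 76.6 pooled CPM in all 7 groups and within 2-fold in each comparison. Suv39h1, Suv39h2 and Setdb1 were at log2 ratios of 0.64, 0.30 and 0.13 in vivo, none past 2-fold, and Setdb1 was at -0.04 without in vivo GROs 17 to 24. Setdb1 went from 65 pooled CPM (39.7 to 85.1 CPM) in iPSC-derived GROs to 104 (85.3 to 154 CPM) in iPSC-derived FGOs, with no overlap between the oocytes.

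Setdb2, a relative of Setdb1 of less settled function, followed another course. It was at 22.5 pooled CPM in in vivo GROs (10.7, 21.8 and 32.1 CPM) and 29.3 in in vivo FGOs (20.2, 28.5 and 43 CPM). Gonad-derived GROs held 60.9 pooled CPM (26.2, 62.9 and 101 CPM) and FGOs 25.8 (10.5, 24.3 and 46.8 CPM), 2.36-fold lower. iPSC-derived GROs held 58.3 pooled CPM (32.6, 53.5 and 118 CPM) and FGOs 35.3 (23.3, 33.8 and 50.7 CPM), a ratio of -0.72. FGOs of the 4 sources spanned 19.7 to 35.3 pooled CPM and GROs 22.5 to 60.9.

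Nsd1, an H3K36 methyltransferase (chromosome 13, 55209782 to 55318325), was the single enzyme called higher in FGOs of all 3 sources. In vivo it was at 79.4 pooled CPM in GROs (53.6, 77.8 and 119 CPM) and 221 in FGOs (108, 234 and 286 CPM), 2.78-fold higher, and all 20 FGOs stood above the median GRO. In gonad-derived oocytes it was at 99.4 pooled CPM in GROs (69.7, 99 and 133 CPM) and 201 in FGOs (156, 206 and 247 CPM), and in iPSC-derived oocytes at 89.1 (62.6, 91.6 and 115 CPM) and 187 (132, 191 and 244 CPM). The oocytes of the 2 stages did not overlap in either culture. The gonad-derived ratio, 1.01, lies just past 2-fold, and leaving out any of 8 single oocytes put it at 0.99 to 1.00. Setd2, which lays down H3K36 trimethylation along transcribed genes, was within 2-fold in vivo (18 pooled CPM in GROs, 7.53 to 35.8 CPM, and 14.8 in FGOs, 9.22 to 25.6 CPM), with a ratio of -0.28, or 0.21 without in vivo GROs 17 to 24, and at -0.55 in gonad-derived and -0.74 in iPSC-derived oocytes.

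**Figure D4:**
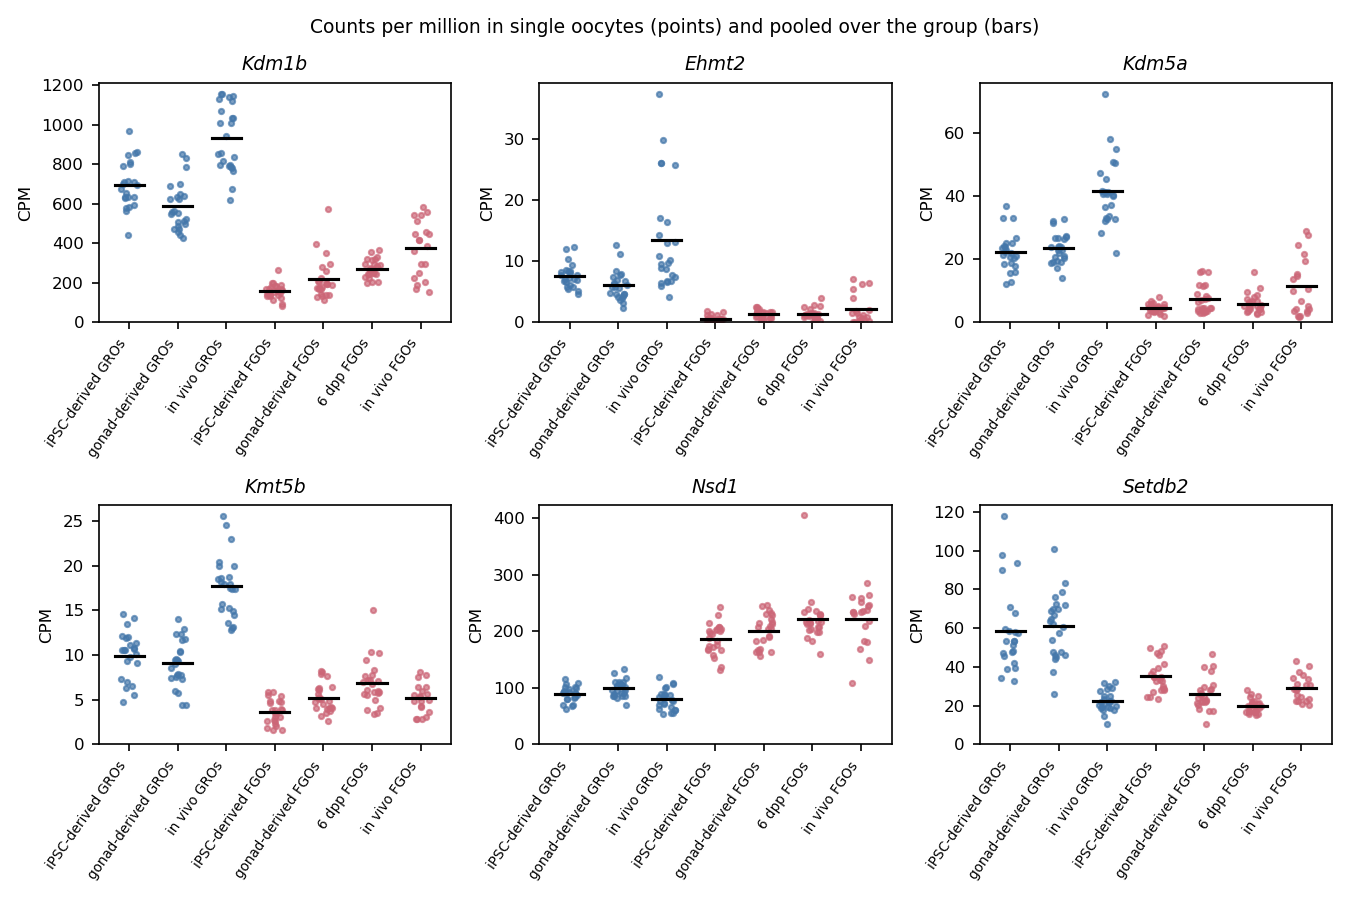
CPM (y axis, linear from 0) in single oocytes (points; blue, GROs; red, FGOs) and pooled over the group (bars) for 6 histone enzyme genes in the 7 groups (x axis). Kdm1b, Ehmt2 and Kdm5a are lower in FGOs of the 3 sources with both stages and Kmt5b in FGOs in vivo and from iPSCs, Nsd1 is higher in FGOs of those 3 sources, and Setdb2 is high in the 2 groups of cultured GROs.

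Of the 3 H4K20 methyltransferases, 2 were lower in FGOs in vivo, 2 in iPSC-derived and 0 in gonad-derived oocytes. Of all genes, 13.2%, 15.3% and 9.98% were lower. Kmt5b, which makes dimethyl and trimethyl H4K20, was at 17.7 pooled CPM in in vivo GROs (12.8, 17.7 and 25.6 CPM) and 5.15 in in vivo FGOs (2.79, 5.13 and 8.07 CPM), 3.43-fold lower without overlap. Its relative Kmt5c was at 16.1 (6.67, 16.1 and 27.2 CPM) and 3.53 (0.606, 2.12 and 11.6 CPM), 4.57-fold lower in plain CPM. With 0.5 CPM added its log2 ratio was -2.05, or -2.66 with the oocytes the study kept. In iPSC-derived oocytes both were lower as well, by 2.71 and 3.01 times. In gonad-derived oocytes neither passed 2-fold by this measure, with Kmt5b at -0.74 and Kmt5c at -0.95. Kmt5c passed 2-fold there by medians over oocytes (-1.05) and without gonad-derived FGO 1 (-1.01) or FGO 6 (-1.03). It also lay just past 2-fold with 0.1 CPM added, so the gonad-derived count of 0 depends on the setting. Kmt5a, which makes the monomethyl form, was at -0.10 in vivo, or 0.44 without in vivo GROs 17 to 24, and 2.08-fold higher in iPSC-derived FGOs (1.04, or 1.00 and just short of 2-fold without iPSC-derived FGO 14), at 39.1 pooled CPM (22.9 to 66.7 CPM) against 18.8 (11.7 to 29.6 CPM) in GROs.

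Of the 9 demethylases acting on H3K9 or H3K36, 2 were lower in FGOs in vivo, 1 in gonad-derived and 3 in iPSC-derived oocytes, where 13.2%, 9.98% and 15.3% of all genes were. Kdm3a, a demethylase of mono- and dimethyl H3K9, lay just outside the count in iPSC-derived oocytes at -0.99, and passed 2-fold by medians over oocytes (-1.38), by means (-1.02), with 0.1 CPM added (-1.02) and without any of 12 single oocytes (up to -1.15, without iPSC-derived FGO 9). Kdm4b, which removes trimethyl marks from H3K9, was at 15.8 pooled CPM in in vivo GROs (7.39, 16.5 and 25.5 CPM) and 5.83 in FGOs (1.71, 4.17 and 20.5 CPM), a ratio of -1.37, and close to 4-fold lower with the oocytes the study kept. In iPSC-derived oocytes the values were 10.3 (5.39 to 17.4 CPM) and 2.65 (0.141 to 5.7 CPM). Kdm3b, an H3K9 demethylase for lower methyl states, was 3.57-fold lower in iPSC-derived FGOs, at 3.87 pooled CPM (1.05 to 8.29 CPM) against 13.8 (8.28 to 17.2 CPM), and -0.94 in vivo. Kdm4c was low in all groups, at 2.12 to 2.23 pooled CPM in GROs and 0.45 to 0.676 in FGOs. Kdm2b, a CpG island-binding H3K36 demethylase found in a Polycomb complex, was within 2-fold in all comparisons, with pooled levels of 64.7 to 103 CPM.

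Neither H3K27 demethylase passed 2-fold in growth by pooled CPM. Kdm6a (X-linked) was at 133 pooled CPM in gonad-derived GROs (89.7 to 182 CPM) and 264 in FGOs (183 to 417 CPM), a ratio of 0.98 without overlap of the oocytes. With TMM libraries or DESeq2 size factors it passed 2-fold (1.01 and 1.02), as it did without gonad-derived GRO 24, FGO 4 or FGO 18. Kdm6b stood at 203 to 289 pooled CPM in all 7 groups. The H3K79 methyltransferase Dot1l was at -0.32 in vivo, 0.61 in gonad-derived and 0.53 in iPSC-derived oocytes.

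H3K4 methyltransferases had a median of -0.72 in vivo (7 of 8 passed the limit on low values), against 0.10 in gonad-derived and 0.01 in iPSC-derived oocytes. Without in vivo GROs 17 to 24 their in vivo median was -0.06. Several of the in vivo ratios depended on in vivo GROs 17 to 24. Kmt2b was at 36.1 pooled CPM over all 24 in vivo GROs and 21 over the 16, while in vivo FGOs were at 26.5 (19.1, 25.7 and 51.3 CPM), so that the ratio was -0.44 with and 0.33 without the 8. Setd1a went from -0.72 to -0.06 and Kmt2a from -1.26 to -0.32, which ends its call. Setd1b, at 2.48 pooled CPM in in vivo GROs (0.856, 1.87 and 5.29 CPM) and 1.06 in FGOs (0.262, 1.09 and 1.74 CPM), went from -0.93 to -0.51. Kmt2e stayed past 2-fold, at -1.32 and -1.02. In gonad-derived oocytes Kmt2a was higher in FGOs at a log2 ratio of 1.23, which became 0.97 without gonad-derived FGO 24.

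Without in vivo GROs 17 to 24 the median ratio of growth in vivo over the 41 enzymes was -0.09 rather than -0.44, beside -0.05 rather than -0.11 for all genes. The counts were 1 higher and 9 lower, where all genes gave 10.7% and 11.3%. Kmt2a was the call that ended, and the 4 enzymes lower in all 3 sources remained so. The ratios of 9 enzymes, Dot1l, Ehmt1, Kdm1a, Kdm2a, Kmt2b, Kmt2d, Kmt5a, Setd1a and Setd5, were below 0 in vivo (-0.87 to -0.07) and above 0 in both cultures, a course that 9.65% of the genes tested in all 3 sources took. Without the 8 oocytes 4 of these were above 0 in vivo as well, and the range of the 9 was -0.29 to 0.44. Then 6 enzymes took that course, Setdb1 among them, against 7.85% of genes.

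**Figure D5:**
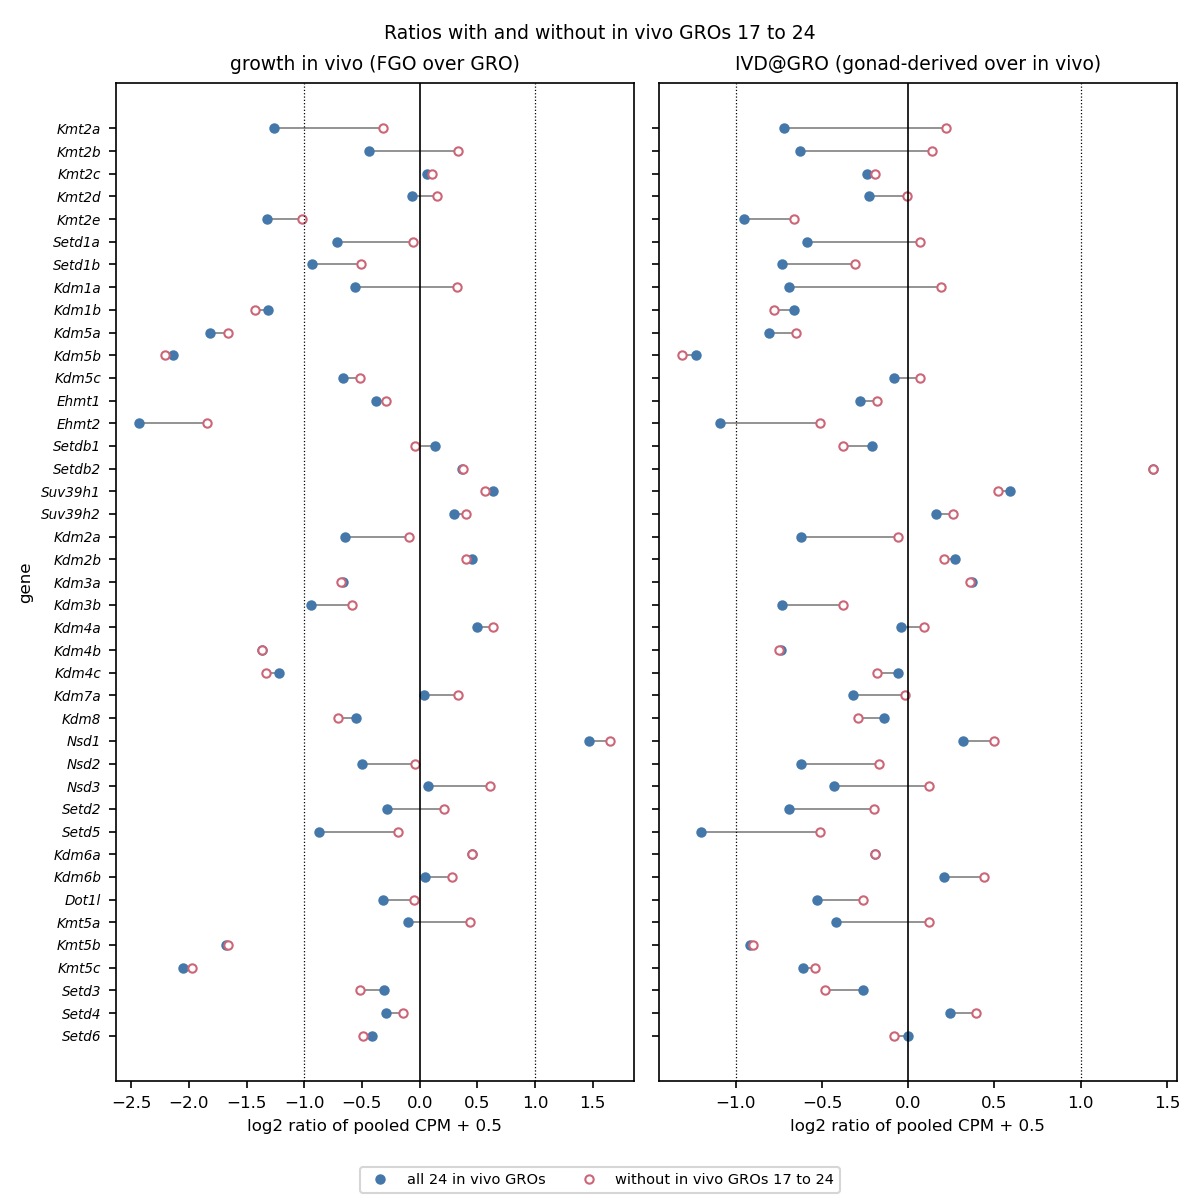
Log2 ratios of pooled CPM plus 0.5 (x axis) of the 41 enzymes that passed the limit on low values (rows), for growth in vivo (FGO over GRO, left) and for gonad-derived over in vivo GROs (right), with all 24 in vivo GROs (filled) and without numbers 17 to 24 (open); dotted lines mark 2-fold. Open points lie to the right of filled ones for Kmt2b, Setd1a, Kdm1a, Kmt5a and Setd5 in both panels, and those of Kdm4b, Kmt5b and Setdb2 nearly coincide.

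The second question was how groups that differ by a step of culture compare, in 5 comparisons named after the study's steps: in vitro differentiation to germ cells (IVP), from germ cells to growing oocytes (IVD) and in vitro growth of follicles (IVG). They share groups with one another and with the growth ratios, so each is given on its own. The groups also differ in more than the named step. By the study's methods IVG lasted longer for iPSC-derived follicles than for the others. Aggregates of iPSC origin were built from sorted germ cell-like cells and somatic cells, those of gonads from all gonadal cells. These differences cannot be told apart from the step. IVP in GROs, iPSC-derived over gonad-derived, had 1 of 41 enzymes higher and 0 lower, against 1.98% and 1.75% of 13422 genes, and a median of -0.04. The 1 was Kmt2a, an H3K4 methyltransferase at 4.18 pooled CPM (0.46, 3.01 and 12.3 CPM) against 0.91 (0, 0.595 and 3.48 CPM), and 22 of 23 iPSC-derived GROs stood above the gonad-derived median. In total 39 of the 41 were within 1.5-fold.

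In IVD in GROs, gonad-derived over in vivo, with all oocytes, enzymes lay below 0 in 32 of 41 cases (78%), where 53.4% of genes did, with a median of -0.42 against -0.03. One was higher and 3 were lower, against 4.18% and 2.7% of genes. Setdb2 was 2.71-fold higher in gonad-derived GROs, at the levels given above, and all 24 stood above the in vivo median. Setd5, a SET protein placed with the H3K36 enzymes, was at 4.16 pooled CPM (1.67, 4.28 and 7 CPM) against 10.2 (3.85, 7.16 and 27.7 CPM), and Ehmt2 (-1.09) and Kdm5b (-1.23) were lower as well. The part of the larger size of gonad-derived GROs in these ratios was not tested.

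The difference was smaller without in vivo GROs 17 to 24. Then the median was -0.17 (0.00 over all genes), close to the -0.19 of IVP in FGOs given below, 25 of 41 enzymes were below 0 (50.4% of genes), and 1 was higher and 1 lower (4.44% and 1.44% of genes). Setd5 moved from -1.20 to -0.51 and Ehmt2 from -1.09 to -0.51, and Ehmt2 also fell just short of 2-fold when in vivo GRO 19 alone was left out. Setdb2 was at 1.42 with and without the 8 oocytes and Kdm5b at -1.23 and -1.31. With 2 CPM added in place of 0.5, all 3 lower calls ended, those of Ehmt2 (-0.94), Kdm5b (-0.73) and Setd5 (-0.99). With and without the 8 oocytes, Kdm1b was at -0.66 and -0.78, Kmt5b at -0.92 and -0.90 and Kdm4b at -0.74 and -0.75, all within 2-fold.

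IVP in FGOs, iPSC-derived over gonad-derived, had no enzyme past 2-fold in either direction, where 2.19% of genes were higher and 3.74% lower. The median was -0.19 against -0.08 and 32 of 41 were below 0 (78%, against 58.7% of genes). The nearest to 2-fold were Kdm4b (-0.99) and Kdm3b (-0.94), 22 and 23 of 24 iPSC-derived FGOs being below the gonad-derived median. Kdm4b passed 2-fold with the oocytes the study kept (-1.02), by means over oocytes (-1.03) and with 0.1 CPM added (-1.09). It also did so when some single oocytes were left out (up to -1.06, without iPSC-derived FGO 18). Kdm3b passed by medians over oocytes (-1.08), so the count of lower enzymes depends on the setting. IVD in FGOs, gonad-derived over 6 dpp, had 1 higher and 0 lower, against 1.58% and 0.95% of genes, and a median of 0.06. Kmt2a was the one, at 2.81 pooled CPM (0, 1.79 and 15.1 CPM) against 0.872 (0, 0.295 and 5.86 CPM), with gonad-derived FGO 24 the highest, and its ratio of 1.27 was 0.74 with 2 CPM added. IVG in FGOs, 6 dpp over in vivo, had none past 2-fold, where 1.22% of genes were higher and 2.97% lower. Its median was 0.10 and Kdm5a was the lowest, at -0.89, with 20 of 24 6 dpp FGOs below the in vivo median. Without the oocytes that earlier results had set apart, the in vivo FGOs 5, 7, 16, 19 and 22 among them, the median was 0.21 and the H4K20 methyltransferase Kmt5c passed 2-fold, its ratio moving from 0.44 to 1.02. With the oocytes the study kept it was 1.07, and by medians over oocytes 1.06. Without the oocytes set apart Kdm5a was at -0.32, and -0.27 with the oocytes the study kept. Ehmt2 turned from -0.53 to 0.35, Kdm4b from -0.12 to 0.50 and Kdm3b from -0.12 to 0.27.

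In FGOs the pooled levels of Kdm1b ordered as 157 CPM (iPSC-derived), 217 (gonad-derived), 271 (6 dpp; 198, 272 and 367 CPM) and 376 (in vivo), and the ranges of neighbouring groups overlapped throughout. In GROs the order was 589 (gonad-derived), 696 (iPSC-derived) and 933 (in vivo), again with overlap of neighbours. Kdm6b and Nsd1 lay within 1.5-fold in all 5 culture comparisons.

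Genes that act with these enzymes were counted by lists, to be read against the 13.2% of all genes that were lower in growth in vivo and the shares given above for the other comparisons. Of the subunits shared by COMPASS and KMT2 complexes, which carry the H3K4 methyltransferases, 12 of 13 were matched and 1 was lower in growth in vivo, Hcfc1 at -1.13 (-0.53 without in vivo GROs 17 to 24), with none past 2-fold in the other 7 comparisons. Of 9 matched partners and readers of H3K9 methylation, Uhrf1 was lower in growth in vivo at -1.25 (-1.37 without those 8 GROs) and none was past 2-fold elsewhere. Of the 7 matched partners of the demethylases LSD1 and LSD2, Hdac1 was lower in growth in vivo (-1.72), in gonad-derived (-1.48) and in iPSC-derived oocytes (-2.12), the 3 comparisons in which Kdm1b was also lower. Rcor2 (-1.40) and Phf21a (-1.21) were lower in vivo as well, and Rcor2 was lower in gonad-derived than in vivo GROs (-1.04). Without the 8 GROs these 3 calls ended, at -0.66, -0.80 and -0.30. Dnmt3a, Dnmt3b and Dnmt3l, the DNA methylation enzymes and cofactor that read histone methylation, had none past 2-fold, and Dnmt3l came closest in growth in vivo with 59.4 pooled CPM in GROs and 119 in FGOs, and passed 2-fold without the 8 GROs (1.12).

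Histone methyltransferases and JmjC proteins that carry other names were matched for 17 of 19, and 15 passed the limit on low values. Of these Riox1 was lower in FGOs of all 3 sources (-1.94, -1.85 and -1.43 in vivo, in gonad-derived and in iPSC-derived oocytes), Smyd2 in vivo (-1.27) and Prdm9, the meiotic H3K4 methyltransferase, in iPSC-derived oocytes (-1.15). Ezh2, the H3K27 methyltransferase of Polycomb, stayed between 294 and 443 pooled CPM. None of the 15 passed 2-fold in the 5 culture comparisons.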

How the data were processed

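The authors deposited a table of unnormalised counts of reads for 163 single-oocyte Smart-seq2 libraries of 7 groups, with the exonic length of each gene. Reads were aligned, according to the submitters' processing notes and the methods, with STAR to GRCm38 (mm10), and uniquely mapped exonic reads were counted with QuasR on 1 randomly chosen transcript per gene. Use of strand is not given in the sources used here. Gene IDs without a symbol numbered 43 of 21950, and 0 value columns lacked a sample.

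The enzymes and the gene lists were chosen with earlier results of these data known. Counts were summed over the oocytes of a group and divided by the summed library (pooled CPM), with exact Poisson 95% intervals. Ratios are log2 of pooled CPM plus 0.5, and a gene was kept where 3 or more oocytes exceeded 1 CPM, taken over all groups of a stage for culture and over both groups for growth. Called means 2-fold or more. A group counted as 1 sample, so no test was run. Full values are given for enzymes past 2-fold in any comparison with 5 pooled CPM in the higher group, and for 10 enzymes listed whatever their values; Kdm4c, Kmt2a, Kmt2e, Kdm6a and others were added after their values were seen. Alternatives were the TMM factors of edgeR 4.0.16, the size factors of DESeq2 1.42.0, pseudocounts of 0.1 and 2 CPM, medians and means over oocytes, no filter, other fold limits and oocytes left out. Python 3.11.15, numpy 2.4.6, pandas 2.3.3, scipy 1.17.1 and R 4.3.3 were used, and the ratio code was tested on simulated counts. Gene positions are from RefSeq, and transcript lengths and exon overlaps are from GENCODE (GRCm38).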

Additional observations from a re-analysis of the deposited data

How the results depend on the processing

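No enzyme called at 2-fold changed direction under a setting run. Single ratios were computed under all settings for the enzymes that met the rule for full values and for Kdm4c, Kmt2a and Kmt2e. Of these ratios 1620 stayed within the counting interval of the reported ratio and 270 did not. The 1620 include 168 from the setting without a filter, which cannot change a ratio. With a limit of 1.5-fold, growth had 2 enzymes higher and 17 lower in vivo (18.7% and 26.6% of genes), 7 and 11 in gonad-derived (14.7% and 21%) and 6 and 13 in iPSC-derived oocytes (15.2% and 27.6%). In culture there were 2 higher and 0 lower for IVP in GROs (6.69% and 5.98%), 2 and 18 for IVD in GROs (9.94% and 12.4%), 0 and 4 for IVP in FGOs (6.1% and 13%), 1 and 0 for IVD in FGOs (5.21% and 3.39%) and 0 and 1 for IVG in FGOs (5.21% and 10.8%). With a limit of 4-fold growth had 0 higher and 3 lower in vivo (3.07% and 1.95% of genes), 0 and 0 in gonad-derived (0.88% and 1.87%) and 0 and 3 in iPSC-derived oocytes (1.13% and 3.61%), and all 5 culture comparisons had 0 and 0 (at most 0.633% and 0.265%). A pseudocount of 2 CPM gave 0 higher in gonad-derived and 1 higher in iPSC-derived growth, 0 lower for IVD in GROs and 0 higher for IVD in FGOs, since it pulls the ratios of low genes towards 0, and 0.1 CPM gave 3 lower for IVP in FGOs. Counts over all genes moved as well. At 2 CPM 15 of them moved and 1 did not, and at 0.1 CPM 10 moved and 6 did not. By medians over oocytes 1 such count moved and 15 did not, and with the oocytes the study kept 1 moved and 13 did not. Medians over oocytes gave 2 higher for IVP in GROs, 1 lower for IVD in GROs, 1 lower for IVP in FGOs and 1 higher for IVG in FGOs, and means gave 1 lower for IVP in FGOs. With the oocytes the study kept, 1 was higher in gonad-derived growth, 1 lower for IVP in FGOs and 1 higher for IVG in FGOs, where Kmt5c moved from 0.44 to 1.07, and 1 was higher for IVG in FGOs without the libraries set apart by earlier results. Under settings chosen after seeing the data, without in vivo GROs 17 to 24, 1 enzyme was lower for IVD in GROs and without gonad-derived FGO 19 and 6 dpp FGO 3, 1 was lower for IVP in FGOs. Leaving out each oocyte in turn gave 1 to 3 enzymes higher in gonad-derived growth, 1 to 2 higher in iPSC-derived growth and 0 to 1 lower for IVP in FGOs. The cause of the other shifts was not tested. By interquartile range over the median, the difference in spread between enzymes and all genes reversed in iPSC-derived FGOs (-0.031) and gonad-derived FGOs (0.019). No paired analysis was possible because no test was run and the labels do not say what the oocyte numbers mark. At 3 reads per group, transcripts under 0.0207 CPM could not be seen.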
